A study of Arabidopsis thaliana with 12 samples.

Results

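The genes AT4G15700, AT2G30540 and GRX480 (locus AT1G28480, also called ROXY19) belong to the plant-type glutaredoxin family of Arabidopsis thaliana. Each was read by 1 probe set that names it alone, and they are 3 of the 13286 genes named in this way on the array. They were picked by name with earlier results of these same 12 arrays known, in which AT4G15700 stood out between the mutant and the wild type and AT2G30540 between treated and untreated seedlings. Their levels and differences are therefore given as a description and support nothing. No p-value is printed for a member, and the calls listed further on add no support. All 3 passed the filter on low signals, AT2G30540 on 4 arrays, each from a treated group.

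Glutaredoxins are small proteins that use glutathione to reduce disulfide bonds or to release glutathione from protein thiols. Besides the CPYC and CGFS types, which plants share with other organisms, land plants have a large group with a CC-type active site. Arabidopsis proteins of this CC type bind TGA transcription factors. ROXY1 and ROXY2 are known from petal and anther development, and GRX480 from responses to salicylic acid, where it can repress jasmonate and ethylene-induced defence genes such as PDF1.2.

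Every array held RNA of whole seedlings, 3 days old and kept in the dark, all of the Col-0 ecotype. There were 6 groups of 2 arrays: the wild type, the mutant eto1-4 without treatment, and eto1-4 on medium with 10 µM of 9393, 9370, 7303 or AVG. The allele eto1-4 affects ETO1, which targets ACC synthases for degradation, so that the mutant makes more ethylene, and AVG (aminoethoxyvinylglycine) inhibits ACC synthase. The other 3 compounds, which the study calls hits, are known here by their codes. Nothing ties the arrays of a group to separate cultures, so the spread between them may be technical. ETO1 was not among the named probe sets and its own transcript was not checked.

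Values are MAS5 signal intensities on a linear scale, which the authors had scaled to 1 trimmed mean (500.04 on all 12 arrays). Differences are on the scale log2(signal + 22.4), fitted over 14830 probe sets in limma, and are followed by their standard error. A probe set was called at a limma p-value under 0.05 after Benjamini-Hochberg adjustment. Signals of different genes are not compared, since probe sets differ in brightness.

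Several features of the arrays cut across the groups. The control probe sets for poly-A spike RNA read 3.77 to 5.95 (median per array) on replicate 1 of Col-0, eto1-4, 9393 and 9370 and 43.5 to 81.6 on the other 8 arrays, so that 4 groups hold 1 unspiked and 1 spiked array. The 3'/5' ratio of the GAPDH control was 1.60 to 2.02 on the 4 unspiked arrays and 1.18 to 1.53 on the 8 spiked arrays. The 25S ribosomal RNA probe set read 208 and 266 in Col-0 and 494 to 12724 on the 10 eto1-4 arrays, treated or not. Of 11 seed reserve genes 3 were named, and their summed signal was 12312 on eto1-4 replicate 1 and 1898 on replicate 2, against 670.0 to 2871 on the other arrays. For the tissue label, the root gene PYK10 read 14113 to 21112 and PORB, a protochlorophyllide oxidoreductase of dark-grown seedlings, 4136 to 15950. They belong to lists of 7 root genes, of which 2 were named, and 8 shoot genes, of which 1 was named. The mean signal of PORB was 14941 in Col-0, 10718 in eto1-4, 7595 under 9393, 6681 under 9370, 4472 under 7303 and 5505 under AVG. The other named root gene, EXPA7, read 111 and 146 in Col-0, 185 and 441 in eto1-4, and 87.1 to 218 on the treated arrays. The part of these features in the results was not tested, except where values within spiked or unspiked arrays, or without 1 array, are given.

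AT4G15700 was near the bottom of the signal range in the wild type, high in untreated eto1-4, and in between under every treatment. It read 35.6 and 18.9 in Col-0 (replicate 1 and replicate 2) and 351 and 458 in eto1-4. The signals were 77.7 and 106 under 9393, 88.8 and 172 under 9370, 105.6 and 115 under 7303, and 140.1 and 223 under AVG. No treated array reached the lower eto1-4 array, and none came down to the higher Col-0 array, so the 10 eto1-4 arrays, treated or not, all lay above the wild type.

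In group means AT4G15700 stood at 27.3 ± 11.8 (SD, n = 2) in Col-0 and 404.6 ± 75.5 in eto1-4, a difference of 3.11 ± 0.33. One Col-0 array is below the offset of 22.4, so this size depends on the offset too, and it was 3.46 with the offset at 11.2 and 2.08 with the offset at 89.5. Its percentile among the probe sets of an array moved from 17.4 and 24.9 in Col-0 to 63.9 and 69.9 in eto1-4. The difference was 2.69 between the unspiked arrays and 3.54 between the spiked ones. Without eto1-4 replicate 1, the array with the high seed reserve signal, it was 3.29.

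Against untreated eto1-4, AT4G15700 was lower under all 4 compounds: -1.90 ± 0.33 under 9393, -1.68 ± 0.33 under 7303, -1.53 ± 0.33 under 9370 and -1.08 ± 0.33 under AVG. Against Col-0, the same groups differed by 1.21, 1.44, 1.59 and 2.03. Both sets of differences use the same treated arrays, and within a set each treatment is set against the same 2 control arrays. The order of the group means was eto1-4, AVG, 9370, 7303, 9393 and Col-0. The arrays of neighbouring groups overlapped from AVG to 9393, while eto1-4 and Col-0 each stood clear of their neighbour in that order. Within the spiked arrays the differences from eto1-4 were -1.90 for 9393, -1.30 for 9370, -1.86 for 7303 and -1.27 for AVG, and within the unspiked arrays -1.90 for 9393 and -1.75 for 9370.

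AT2G30540 showed the opposite layout: it was close to the floor of the array in untreated eto1-4 and higher everywhere else. Its signal was 70.4 and 49.8 in Col-0 and 5.26 and 4.05 in eto1-4. It read 52.2 and 128 under 9393, 77.7 and 144 under 9370, 72.6 and 122 under 7303, and 126 and 38.5 under AVG. Both eto1-4 arrays were below the other 10, and the remaining groups all overlapped with their neighbours.

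The eto1-4 signals of AT2G30540 lay at percentiles 9.34 and 7.61 of their arrays, below the offset of 22.4, and detection calls were not used here. The size of its differences therefore depends on the offset, and no fold is given. On the offset scale eto1-4 stood at -1.60 ± 0.48 from Col-0, -1.75 between the unspiked and -1.45 between the spiked arrays. The treated groups stood above eto1-4 by 2.25 ± 0.48 (9370), 2.12 ± 0.48 (7303), 1.97 ± 0.48 (9393) and 1.81 ± 0.48 (AVG). From Col-0 they differed by 0.66, 0.52, 0.37 and 0.22 in the same order, with the same standard error of 0.48. The difference of 9370 from eto1-4 was 2.89 with the offset at 11.2 and 1.07 with the offset at 89.5. The array pairs of 9393, 9370, 7303 and AVG were far apart, with standard deviations of 53.6, 46.7, 35.0 and 62.0 on means of 90.1, 110.8, 97.3 and 82.3.

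GRX480 did not follow the mutation in the way of the other two genes. It read 100.5 and 168 in Col-0 and 202 and 161 in eto1-4, and the 2 groups overlapped. The signals were 95.0 and 63.1 under 9393, 53.5 and 91.2 under 7303, 72.7 and 68.8 under AVG, and 234 and 111 under 9370. The 6 arrays of 9393, 7303 and AVG all lay below the 6 arrays of Col-0, eto1-4 and 9370.

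Relative to untreated eto1-4, GRX480 differed by -1.13 ± 0.36 under 7303, -1.12 ± 0.36 under AVG and -1.02 ± 0.36 under 9393, and by -0.13 ± 0.36 under 9370. The higher 9370 array was the unspiked one, and against the eto1-4 array of the same kind the difference was 0.20 on the unspiked and -0.45 on the spiked arrays. Between eto1-4 and Col-0 it was 0.40 ± 0.36, with 0.87 on the unspiked and -0.060 on the spiked arrays. Without 9370 replicate 2 the difference of 9370 from eto1-4 was 0.34. For 9393 both kinds of array gave a negative value, at -0.93 and -1.10. Within the spiked arrays 7303 stood at -0.98 and AVG at -0.97 from eto1-4.

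**Figure D1:**
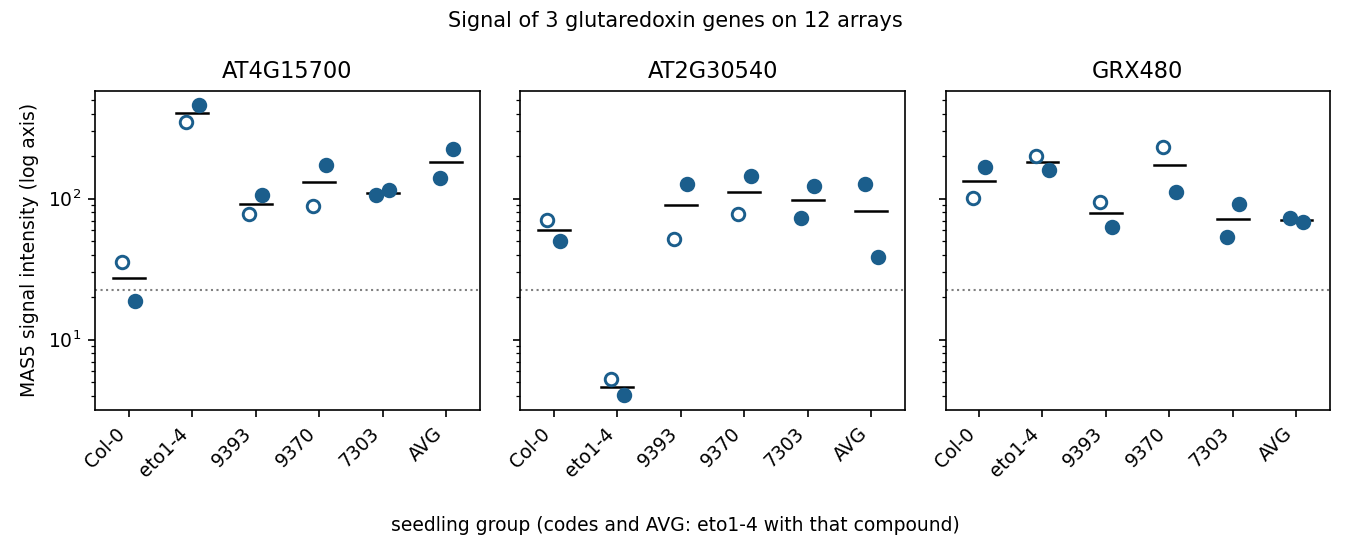
Signal of AT4G15700, AT2G30540 and GRX480 on each of the 12 arrays, as MAS5 intensity on a log axis by seedling group. Filled points are arrays with poly-A spike signal, open points are arrays without it, black lines are means of 2 arrays and the dotted line is the offset of 22.4. AT4G15700 runs from 18.9 in Col-0 to 458 in eto1-4, AT2G30540 reads 5.26 and 4.05 in eto1-4 and at least 38.5 elsewhere, and GRX480 lies between 53.5 and 95.0 under 9393, 7303 and AVG.

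The plot of the members' signals shows AT4G15700 and AT2G30540 at opposite ends in untreated eto1-4, and both nearer to Col-0 under each compound. Across the 12 arrays, which share 6 groups, the log2 signals of these 2 genes had a Pearson correlation of -0.50. GRX480 had a correlation of 0.09 with AT4G15700 and -0.50 with AT2G30540.

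Between treated groups, all at 10 µM and 3 days, AT4G15700 was lower under 9393 than under AVG by -0.82 ± 0.33, and the other 5 pairs differed by 0.59 or less in size. For AT2G30540 the widest of the 6 pairs was 9370 over AVG, at 0.44 ± 0.48. GRX480 was higher under 9370 than under AVG by 0.99 ± 0.36 and much the same against 7303, while 9393 stood at -0.89 ± 0.36 from 9370. The other 3 pairs differed by 0.11 or less in size, with the same standard error of 0.36.

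The limma fit called 1 of the 3 members higher in eto1-4 than in Col-0, AT4G15700, where 0.978% of all tested probe sets were called higher. Under 9393 it called AT4G15700 lower (background 0.31%). Under 9370 and 7303 it called AT4G15700 lower (backgrounds 1.96% and 1.72%) and AT2G30540 higher (2.08% and 2.97%). Under AVG none of the 3 was called, against 5.32% of all probe sets in either direction and 2.95% higher, and all 3 had an unadjusted p under 0.05, as did 24.0% of all probe sets. Over 21 alternative fits the AT4G15700 call held in 20 for eto1-4 against Col-0, where it was lost without Col-0 replicate 2. It held in 10 for 9393, 11 for 9370 and 17 for 7303, and the AT2G30540 call held in 10 for 9370 and 11 for 7303. These 5 calls were all lost without either eto1-4 array or either 7303 array. The members were chosen with these comparisons known, and AT2G30540 passed the filter on treated arrays alone. Nothing is therefore read from the calls, the unadjusted p-values or the counts.

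AT4G15700 is the last of 5 adjacent glutaredoxin loci on chromosome 4 that run from AT4G15660 to AT4G15700, and 3 of its 4 neighbours in this row have a probe set of their own. AT4G15670 was not analysed here. All 3 measured neighbours read higher in both eto1-4 arrays than in both Col-0 arrays. The share of all probe sets that separate in this way is not given here, and nothing is read from the layout. AT4G15660 read 40.9 and 20.7 in Col-0 and 108 and 323 in eto1-4. AT4G15690 read 34.9 and 29.2 in Col-0 and 123 and 271 in eto1-4. AT4G15680 read 109 and 50.4 in Col-0 and 222 and 340 in eto1-4. The spread between the 2 eto1-4 arrays was wide for all 3, and the spiked array was the higher one.

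None of the 3 neighbours was called in eto1-4 against Col-0 by the limma fit, where 2.2% of all tested probe sets were called. AT4G15660 differed by 2.02 ± 0.51 (adjusted p = 0.0718), AT4G15690 by 1.93 ± 0.45 (adjusted p = 0.0616) and AT4G15680 by 1.60 ± 0.47 (adjusted p = 0.112). All 3 had an unadjusted p under 0.05, as did 16.8% of all tested probe sets. With the spike signal as a block in limma, AT4G15660 (adjusted p = 0.0241) and AT4G15690 (adjusted p = 0.0134) were called higher, with a background of 2.58%. Over all 21 alternative fits their adjusted p-values ranged from 0.0241 to 0.394 and from 0.0134 to 0.306, and each was called in 5, the fits without either 9370 array among them (adjusted p from 0.0336 to 0.0454). Within the spiked arrays the differences of AT4G15660, AT4G15680 and AT4G15690 were 3.00, 2.31 and 2.51, and within the unspiked arrays 1.04, 0.89 and 1.35.

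Under the compounds the neighbours stayed closer to untreated eto1-4 than AT4G15700 did in value, though this contrast was not tested. AT4G15660 differed from eto1-4 by -0.92 ± 0.51 under 9393, -0.65 under 9370, -0.46 under 7303 and 0.20 under AVG. AT4G15690 differed by -0.55 ± 0.45, -0.32, -0.28 and 0.24, and AT4G15680 by -0.45 ± 0.47, -0.28, -0.11 and 0.02, in the same order. None of these 12 differences was called in limma. Under AVG the signals were 180.2 and 271 for AT4G15660, 191 and 258 for AT4G15690, and 253 and 305 for AT4G15680, all above the Col-0 arrays.

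Against Col-0, the AVG group had higher AT4G15690 (2.17 ± 0.45, adjusted p = 0.0232) and AT4G15660 (2.22 ± 0.51, adjusted p = 0.0294) in limma, with 4.4% of tested probe sets called higher. This comparison was added after values were seen, so its calls here and below are given as a description. Both genes passed the filter on arrays other than those of Col-0, both AVG arrays among them, so these 2 calls are not independent of the filter. AT4G15680 differed by 1.62 ± 0.47 (adjusted p = 0.0563). The shoot marker PORB was called lower in the same comparison (-1.48 ± 0.34, adjusted p = 0.0299), and its part in these differences was not tested. AT5G18600, a further CC-type gene, was also called higher there (2.20 ± 0.41, adjusted p = 0.0190). For 9393, 9370 and 7303 against Col-0 limma called 0 of 14830 probe sets (0%), with 1439, 1815 and 3493 at an unadjusted p under 0.05. The 5 loci of the row are close relatives, and cross-hybridisation between their probe sets was not tested. Correlations of AT4G15660, AT4G15690 and AT4G15680 with AT4G15700 over the 12 arrays were 0.86, 0.83 and 0.81.

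**Figure D2:**
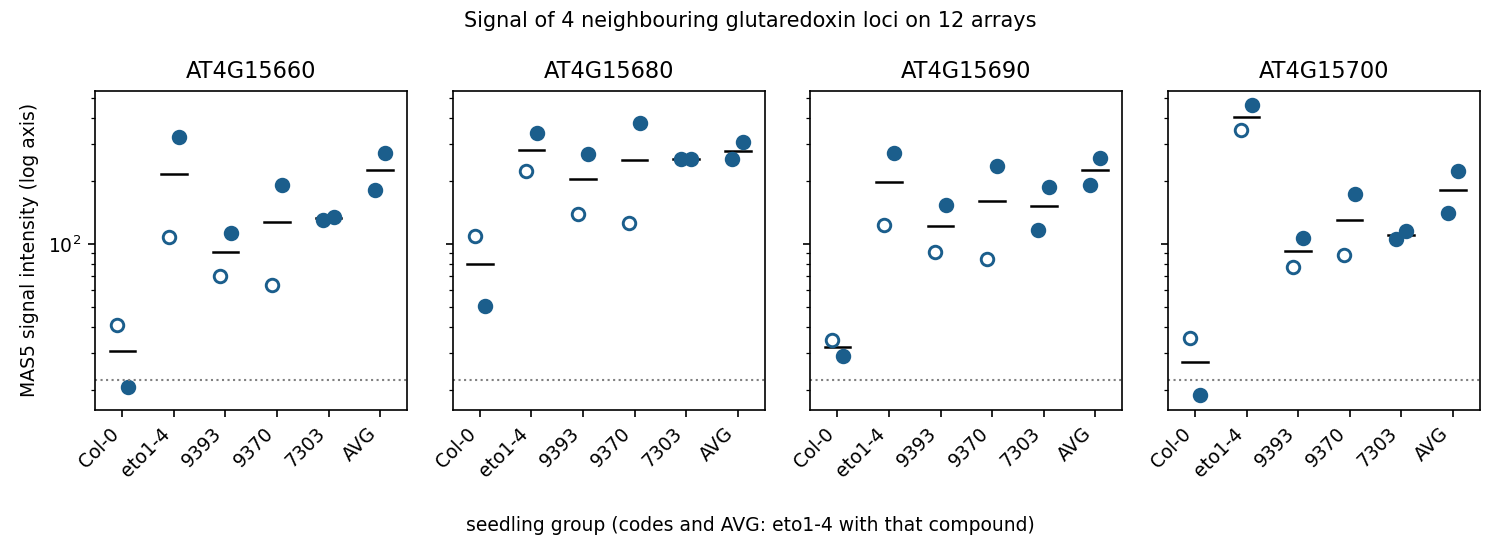
Signal of the 4 measured loci of the chromosome 4 row on each of the 12 arrays, as MAS5 intensity on a log axis by seedling group. Filled points are spiked arrays, open points unspiked arrays, black lines means of 2 arrays and the dotted line the offset of 22.4. In all 4 loci both eto1-4 arrays lie above both Col-0 arrays, and under AVG AT4G15660, AT4G15680 and AT4G15690 read 180.2 to 305.

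The plot of the 4 neighbouring loci shows both Col-0 arrays below both eto1-4 arrays at each locus, a layout whose share over all probe sets is not given here. For AT4G15700 every treated array lies under both eto1-4 arrays, while for the other 3 loci treated and untreated eto1-4 arrays overlap.

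Under 9370, 2 other CC-type genes, AT1G06830 and AT3G62930, rose against untreated eto1-4. AT1G06830 read 27.1 and 109 in Col-0, 22.5 and 13.5 in eto1-4, and 152 and 159 under 9370. Its arrays read 49.3 and 105 under 9393, 47.8 and 73.5 under 7303, and 11.4 and 41.8 under AVG. The 9370 arrays were the highest of the 12, and those of AVG overlapped with untreated eto1-4.

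AT1G06830 rose by 2.15 ± 0.49 under 9370 (limma adjusted p = 0.0439, background 2.08% called higher), with 1.96 between the unspiked and 2.34 between the spiked arrays. AT1G06830 passed the filter on 4 arrays, both of those of 9370 among them, so this call is not independent of the filter. Its differences under 9393 (1.25 ± 0.49), 7303 (1.03) and AVG (0.21) were not called, nor was eto1-4 against Col-0 (adjusted p = 0.343). The call under 9370 was lost without either array of eto1-4, 9370 or 7303, without the filter, in a fit of eto1-4 and 9370 alone and in the spiked arrays alone. The adjusted p-values ran from 0.0192 to 0.151 over 21 alternatives, 12 of which called it.

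AT3G62930 read 77.2 and 61.0 in Col-0, 62.6 and 58.0 in eto1-4, and 156 and 145 under 9370. It read 124 and 125 under 9393, 79.1 and 90.5 under 7303, and 103 and 88.6 under AVG. Each treated array lay above both untreated eto1-4 arrays, and the 9393 and 9370 arrays lay above all others. AT3G62930 passed the filter on 6 arrays, all of them treated and those of 9370 among them, so its call under 9370 is not independent of the filter. The rise under 9370 was 1.07 ± 0.21 (limma adjusted p = 0.0261), and it was 1.07 between the unspiked and 1.06 between the spiked arrays. Under 9393 the difference was 0.83 ± 0.21 (adjusted p = 0.0975), under AVG 0.51 and under 7303 0.37. The 9370 call was lost without either array of eto1-4, 9370 or 7303, in a fit of eto1-4 and 9370 alone and in the spiked arrays alone (adjusted p from 0.0131 to 0.236 over 21 alternatives, called in 13).

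ROXY2 read 31.3 and 62.2 in eto1-4, 95.6 and 140 under 7303, and 108 and 124 under AVG. It differed from untreated eto1-4 by 1.04 ± 0.32 under 7303 (limma adjusted p = 0.0936) and 1.04 ± 0.32 under AVG (adjusted p = 0.0871), and was not called. Over the 12 arrays ROXY2, AT3G62930 and AT1G06830 had correlations of 0.74, 0.68 and 0.52 with AT2G30540. Among all tested probe sets naming 1 gene, these lay at percentiles 94.9, 92.3 and 83.7. Other CC-type genes went the other way, AT4G33040 (-0.57) and AT5G11930 (-0.52) the furthest.

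**Figure D3:**
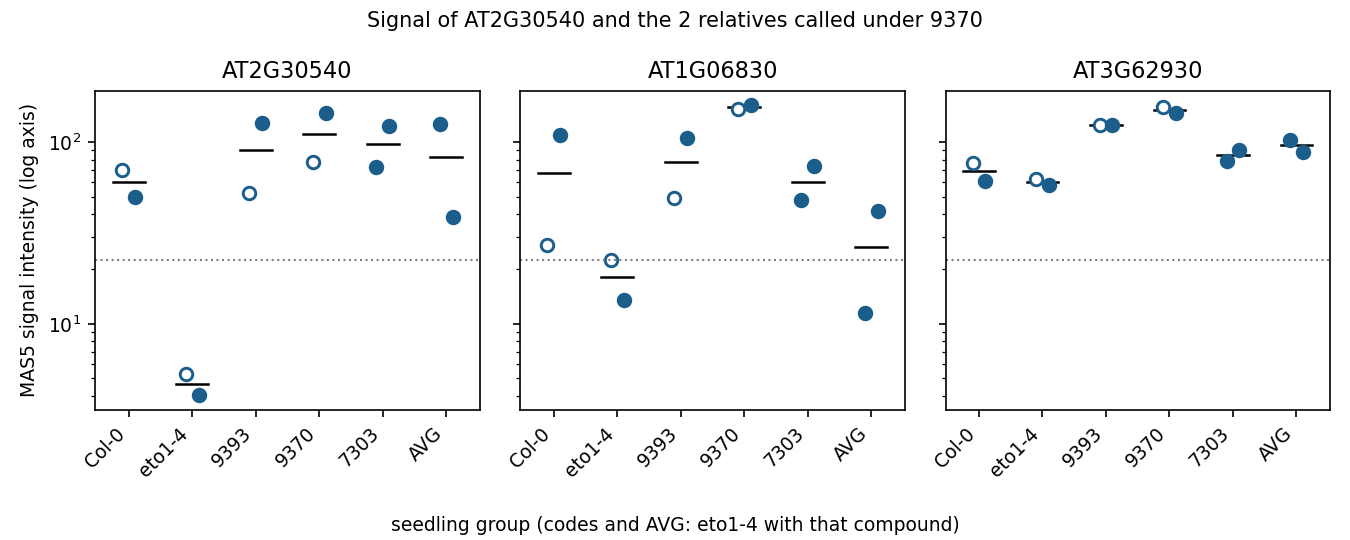
Signal of AT2G30540, AT1G06830 and AT3G62930 on each of the 12 arrays, as MAS5 intensity on a log axis by seedling group. Filled points are spiked arrays, open points unspiked arrays, black lines means of 2 arrays and the dotted line the offset of 22.4. AT1G06830 reads 152 and 159 and AT3G62930 156 and 145 under 9370, above their eto1-4 arrays at 22.5 and 13.5 and at 62.6 and 58.0.

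The plot of these 3 genes shows that the untreated eto1-4 arrays are low for AT2G30540 and AT1G06830. AT3G62930 has much the same signal in Col-0 and eto1-4.

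On a list of 21 CC-type glutaredoxins, 17 genes had a probe set that named them alone and 12 were bright enough to be tested, the 3 members among them. ROXY1, AT3G62960, AT2G47880, AT1G03020 and AT5G11930 were under the 40th percentile on all 12 arrays. The filter matters for reading the others: AT3G62950, AT4G15660 and AT4G15690 read at most 40.9 in Col-0 and passed through other groups. AT3G62930 and ROXY2 each passed on 6 arrays, all of them treated. In eto1-4 against Col-0 the median difference was 1.60 over the 9 tested genes other than the members and 0.13 over the 14 named ones, against -0.03 over all probe sets.

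In that comparison limma called 0 of the 9, where 2.2% of all probe sets were called. At an unadjusted p under 0.05 there were 5 of the 9, and 16.8% of all probe sets. The 5 were the 3 neighbours, AT5G18600 (1.79 ± 0.41, adjusted p = 0.0561) and AT3G62950 (2.23 ± 0.76, adjusted p = 0.166). AT5G18600 read 1282 and 409 in Col-0 and 2516 and 2637 in eto1-4. Its 10 arrays of eto1-4 seedlings, treated or not, lay between 1883 and 3782, all above Col-0. With the spike signal as a block 4 of the 9 were called higher, AT5G18600, AT3G62950, AT4G15660 and AT4G15690, with a background of 2.58%. In the spiked arrays alone these were AT5G18600, AT4G15660, AT4G15680 and AT4G15690, with a background of 0.62%. The AT5G18600 adjusted p was between 0.0126 and 0.235 over 21 alternatives and that of AT3G62950 between 0.0229 and 0.505. Without Col-0 replicate 1 AT5G18600 was called, at 2.59 (adjusted p = 0.0126). The fit on spiked arrays sets 1 Col-0 array against 1 eto1-4 array and takes its spread from other groups. The low 25S signal of Col-0 and the higher EXPA7 signals of untreated eto1-4 move with this comparison, and their part was not tested.

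Under 9370, limma called 2 of the 9 higher, AT1G06830 and AT3G62930, and none lower, with 4.05% of probe sets called in either direction. AT3G62930 entered the test through treated arrays alone, those of 9370 among them, so its call is not independent of the filter. Both 9370 arrays were also among the 4 on which AT1G06830 passed. Under 9393, 7303 and AVG it called 0 of the 9, with backgrounds of 0.661%, 4.69% and 5.32%. At an unadjusted p under 0.05 there were 2, 1 and 3 of the 9, against 15.5%, 23.7% and 24.0% of all probe sets. AT4G33040 read 368 and 335 in eto1-4 and 131 and 197 under AVG, a difference of -1.02 ± 0.45 (adjusted p = 0.202). The medians of the 9 under 9393, 9370, 7303 and AVG were -0.25, -0.28, -0.11 and 0.24, against -0.01, 0.01, -0.05 and -0.04 over all tested probe sets. Over the 14 named genes other than the members, dim ones included, they were -0.11, -0.01, -0.10 and 0.21.

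**Figure D4:**
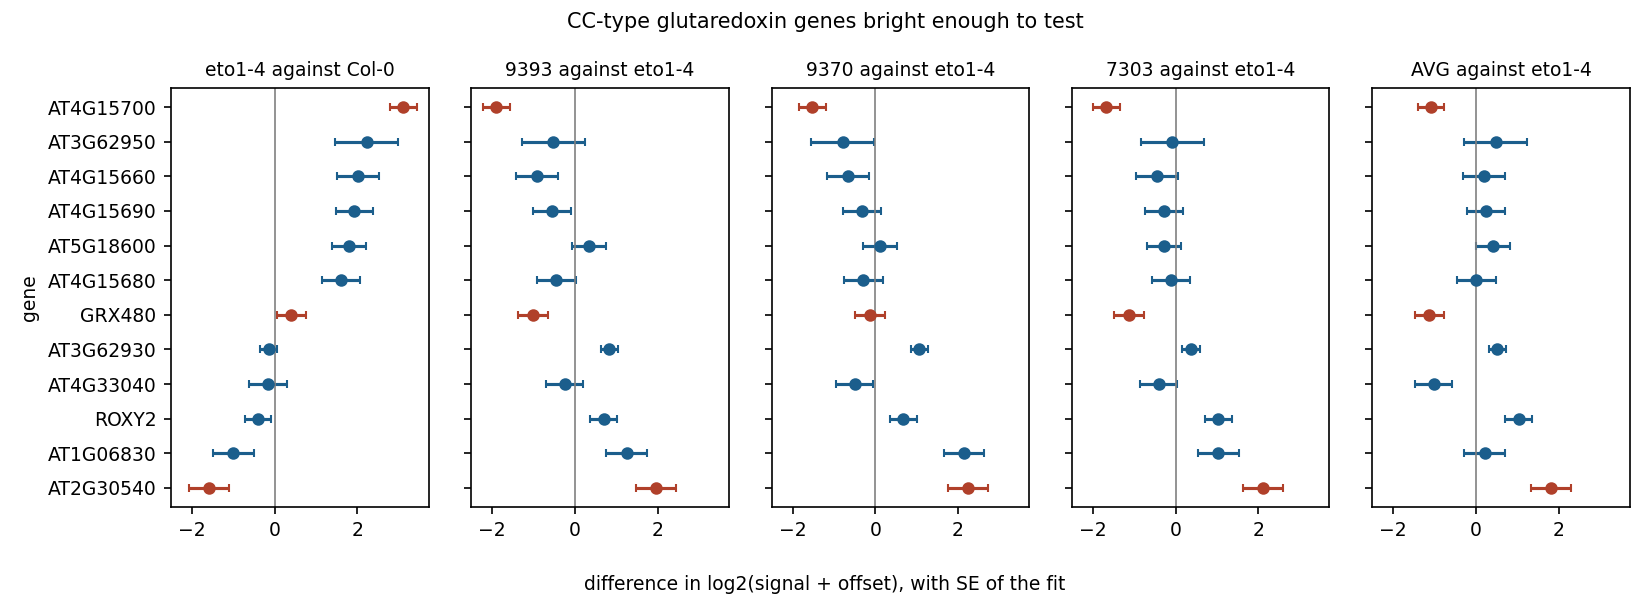
Differences in log2(signal + 22.4) of the 12 tested CC-type glutaredoxin genes in the 5 main comparisons, with the standard error of the limma fit as bars. Red points are AT4G15700, AT2G30540 and GRX480, which were chosen from these values, and blue points the other 9 genes. AT4G15700 runs from 3.11 in eto1-4 to -1.90 under 9393, and AT2G30540 from -1.60 to 2.25 under 9370.

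The plot of the CC-type differences shows the spread within the family. In eto1-4 against Col-0, 5 of the 9 other genes were positive and 4 negative. Under AVG 8 of the 9 were positive, none of them called, where the median over all tested probe sets was -0.04. The share of all tested probe sets that were positive is not given here. GRX480 and AT4G33040 stood lowest with AT4G15700.

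Among the CPYC-type glutaredoxins, which include the cytosolic GRXC1 and GRXC2, 5 of 6 genes were named and tested. AT1G77370 rose under AVG by 0.78 ± 0.19 (limma adjusted p = 0.0435), the 1 call among these 5 genes in the 5 main comparisons, with a background of 2.95% called higher under AVG. It read 1160 and 1028 in eto1-4 and 1931 and 1861 under AVG, and the other treated arrays read 1372 to 1827. The call held in 10 of 21 alternatives, with adjusted p-values from 0.0153 to 0.267. It was lost without either array of Col-0, eto1-4, 7303 or AVG, without the filter, with quantile scaling and in a fit of eto1-4 and AVG alone. GRXC1 read 1131 and 891 in Col-0 and 2164 and 1461 in eto1-4 (0.81 ± 0.27, adjusted p = 0.152), and was called higher under AVG than in Col-0 (1.08 ± 0.27, adjusted p = 0.0369). AT1G77370 was the other of 2 calls there (0.74 ± 0.19, adjusted p = 0.0398), with a background of 4.4% called higher. No gene of the CGFS type was named.

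For the partners of glutaredoxins little was measured. The glutathione reductase genes GR1 and GR were not called in any of the 5 main comparisons in limma, with 0 at an unadjusted p under 0.05. Of 17 glutathione transferases 3 were named, and none was called in the main comparisons. GSTU25 read 841 and 604 in eto1-4 and 269 and 312 under 7303 (-1.24 ± 0.47, adjusted p = 0.148). GSTU20 read 461 and 489 in Col-0 and 114 and 148 under AVG, where it was called lower than in Col-0 (-1.71 ± 0.33, adjusted p = 0.0198, background 4.8%). Of the 9 defence genes on the list PDF1.2 alone was named, and it read 2.20 to 39.3, under the filter on all 12 arrays. AT3G25790 was the 1 named gene of 12 on the nitrate list, with -0.80 in eto1-4 against Col-0, not called. No TGA factor, cytosolic thioredoxin or peroxide enzyme on the lists was named.

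The genes whose log2 signals followed each member most closely were taken from 7994 other tested probe sets naming 1 gene, by Pearson correlation over the 12 arrays. The arrays share 6 groups, so any gene that differs between the same groups scores high. For AT4G15700 they were AT5G62280 (0.95), AT2G39980 (0.94), AT1G36060 (0.93), ARL (0.92), an ARGOS-like gene, and AT1G05020 (0.92). The mean signal of ARL was 711 in Col-0 and 4152 in eto1-4, and that of AT2G39980 was 275 and 5105.

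For AT2G30540 the closest were AT5G22850 (0.97), SWEET17 (0.96), a sugar transporter gene, AT5G15780 (0.94), AT2G16270 (0.94) and AT5G24870 (0.93). SWEET17 averaged 822 in Col-0 and 91.7 in eto1-4. For GRX480 they were AT5G10320 (0.93), GSTL3 (0.88), a lambda glutathione transferase, AT4G17720 (0.88), AT5G10830 (0.87) and AT3G04000 (0.86). GSTL3 averaged 1405 in Col-0 and 1505 in eto1-4. For GRX480 the mutant and the wild type overlapped, with a difference of 0.87 on the unspiked and -0.060 on the spiked arrays.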

How the data were processed

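Whole seedlings were profiled on 12 Affymetrix arrays. Per the submitters' processing notes the deposited intensities are MAS5 signals, 1 per probe set, and no source used here gives their settings. Controls (64 of 22810 probe sets) were left out. Signals were taken to log2 after adding 22.4, their 20th percentile, which understates changes of dim genes. Tests covered the 14830 probe sets that exceeded the 40th percentile of their array in 2 or more samples. Genes were named through the platform annotation and gene identifiers of assembly TAIR10.1 (13436 probe sets name 1 gene). One limma 3.58.1 model (R 4.3.3, intensity trend, 6 residual and 4.07 prior degrees of freedom) held 6 group means over all arrays, and p-values were adjusted by Benjamini-Hochberg within each comparison. It was tested on simulated data. The number of arrays limits precision. Alternatives changed the offset, filter, scaling, samples, replicate block and spike block.

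The members and lists were chosen with earlier results of these data known. Besides the members, the text names measured glutaredoxins, list genes called in a main comparison or otherwise the 2 that differed most, and the 5 probe sets most correlated with each member. Of 135 genes on 13 lists, 35 were named. GSTU20, PORB, PYK10 and the Col-0 contrasts were added after values were seen. No sequences were used.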

Additional observations from a re-analysis of the deposited data

How the results depend on the processing

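Of 315 recomputed differences of the members (15 differences under 21 alternatives each), 294 moved by less than the spread between arrays, 19 moved further and 2 moved further with a change of sign. With the offset halved, AT2G30540 stood at -2.15 (eto1-4 against Col-0), 2.57 (9393), 2.89 (9370), 2.74 (7303) and 2.38 (AVG against eto1-4), and at 4 times the offset at -0.66, 0.90, 1.07, 0.98 and 0.82. At 4 times the offset AT4G15700 stood at 2.08 (eto1-4 against Col-0), -1.44 (9393) and -1.30 (7303). A larger offset draws every log2 difference towards 0 by its construction, and more so where a group is dim. In the spiked arrays alone, AT4G15700 was 3.54 and GRX480 -0.060 in eto1-4 against Col-0. GRX480 under 9370 was 0.34 without 9370 replicate 2 and 0.017 without eto1-4 replicate 1. Leaving out 1 array at a time gave, for eto1-4 against Col-0, 9393, 9370, 7303 and AVG in this order, 2.87 to 3.36, -2.08 to -1.72, -1.93 to -1.12, -1.86 to -1.49 and -1.38 to -0.79 for AT4G15700. The same gave -1.78 to -1.42, 1.46 to 2.48, 1.89 to 2.62, 1.81 to 2.42 and 1.17 to 2.46 for AT2G30540. GRX480 gave 0.09 to 0.72, -1.24 to -0.79, -0.60 to 0.34, -1.42 to -0.84 and -1.27 to -0.97. Over all probe sets limma called 326, 98, 600, 696 and 789, and leaving out 1 array gave 2 to 416, 0 to 161, 1 to 682, 2 to 1010 and 4 to 1123. Without the filter the first 4 were 191, 40, 374 and 427. With the spike block the first 3 were 942, 578 and 1591, and in the spiked arrays alone the first 2 were 202 and 158. With only the compared groups fitted, the counts were 199, 1, 6, 884 and 353, so that 7303 was higher and the other 4 lower. Median centring moved the share of calls that were higher from 44.5% to 60.0% (eto1-4 against Col-0), from 63.4% to 75.0% (7303) and from 55.4% to 69.8% (AVG). Calls among the 12 CC-type genes, members included, were 1, 1, 4, 2 and 0, and leaving out 1 array gave 0 to 4, 0 to 1, 0 to 4, 0 to 2 and 0 to 1. For eto1-4 against Col-0 they were 2 with median centring and 5 with the replicate block, the spike block or the spiked arrays alone. For 9393 they were 0 without the filter, in the spiked arrays and with the compared groups alone. For 9370 they were 2 without the filter, and 0 in the spiked arrays and with the compared groups alone. For 7303 they were 1 at 4 times the offset, without the filter, with the spike block and in the spiked arrays. For AVG they were 1 at either other offset and with median centring. Where no cause is given, the cause was not tested. Same-numbered arrays deviated together with correlations from -0.27 to 0.78 over 15 pairs of groups, 5 of them over 0.1. All 5 were between Col-0, eto1-4, 9393 and 9370, the groups whose replicate 1 was unspiked. There the number and the spike signal cannot be told apart, and in the main fit the numbers were not taken to pair the samples. The replicate block left every member's difference as it was and gave 164 calls for 9393. Signals near the offset carry little information on the size of a change.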
